A study of Mus musculus with 59 samples.

Results

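A set of 34 genes of the endoplasmic reticulum (ER) chaperone and unfolded protein response systems was followed through the prefrontal cortex of young mice given lithium or fluoxetine. The genes are a list of names grouped by known role and were found by symbol among the 18088 genes of the table. The list was chosen with earlier results of these data known, so counts over it are not an independent test. All 34 were among the 16599 genes that passed the filter on low values (a mean normalized count of at least 10), so none was left out of the tests. By role they are 12 chaperones and co-chaperones, 8 disulfide and proline isomerases, 6 stress sensors and transcription factors and 8 genes of ER-associated degradation.

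Messenger RNA was sequenced from 59 mice of the C57BL/6J strain at postnatal day 25. They carried 1 knock-in allele of Shank3, a scaffold gene of excitatory synapses (KI heterozygous, HT), or were wild type (WT), and pups had received vehicle, fluoxetine or lithium through the milk of the dam for 3 weeks, from postnatal day 3 to day 24. Fluoxetine blocks the reuptake of serotonin, and lithium, a mood stabilizer, inhibits glycogen synthase kinase 3 and inositol monophosphatase. Each of the 6 arms of genotype and drug held 10 mice, 5 females and 5 males, except that lithium in WT mice had 9, with 4 females. All groups, the vehicle groups included, share the strain, the age, the tissue and dosing through the dam, and since the drug reached the pups through the dam and litters are not labelled, p-values count pups as independent. The labels name no driver that would restrict the allele to a cell type. Unless a sex is named, both sexes enter a comparison with equal weight, a change is a difference of log2(normalized count + 1) with its SE, and adjusted p-values come from limma over all 16599 genes. A gene is said to have risen or fallen where its adjusted p was under 0.05.

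The ER lumen is where secreted and membrane proteins fold, and BiP, the product of Hspa5, holds their unfolded stretches while other chaperones, glycan-binding lectins and disulfide isomerases complete the fold. Proteins that fail are moved back to the cytosol and degraded. When unfolded protein builds up, the sensors IRE1 (Ern1), PERK (Eif2ak3) and ATF6 leave BiP and signal to the nucleus through XBP1, ATF4 and cleaved ATF6, which raise the transcription of chaperones and degradation genes, and neurons use the same system to meet the load of receptors and channels sent to synapses.

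Libraries held 22984556 to 35969254 reads. The labelled tissue was borne out by 7 markers of cortical excitatory neurons, all measured, whose summed normalized count ran from 36073 to 78660 over the libraries. Summed markers of the olfactory bulb, a neighbouring tissue, ran from 514 to 21858, and the choroid plexus markers from 58.5 to 131 except for 52695 in HT vehicle female 1. A bulb index (the mean over 7 markers, each relative to its mean over libraries) was above 2.5, or the mitochondrial share of reads below 5%, in 8 libraries: HT lithium females 4 and 5, HT vehicle males 4 and 5, WT fluoxetine females 1, 2 and 4 and WT lithium female 1. HT lithium female 5 had the lowest mitochondrial share, 2.70%. In whole tissue, fewer cells of a type and less RNA per cell cannot be told apart.

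The promoters of 13 of the genes hold an element through which the pathway is known to act. Windows of 300 bases, 250 before and 50 after the start, were found for 30 of the 34 genes in RefSeq (GRCm38.p6), 2 of them under the newer symbols Ero1a (here Ero1l) and Ero1b (Ero1lb). The ER stress response element, bound by ATF6 with the CCAAT-binding factor NF-Y, was searched as CCAAT and CCACG separated by 9 bases, on both strands. It stood in the windows of 10 of these 30 genes (33.3%), against 37 of all 27025 genes with a window (0.137%). The genes were listed for known roles in the pathway that acts through this element, so the contrast is no independent test. The 11 matches follow, each read in the direction of the element with its fixed letters in capitals, because they show how freely the 9 spacer bases vary between chaperones.
Hspa5: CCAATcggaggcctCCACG
Hsp90b1, distal: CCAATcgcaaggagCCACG
Hsp90b1, proximal: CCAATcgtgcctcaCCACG
Calr: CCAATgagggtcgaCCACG
Canx: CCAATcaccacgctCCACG
Creld2: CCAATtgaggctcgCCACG
Dnajc3: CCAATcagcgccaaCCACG
Pdia6: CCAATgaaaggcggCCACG
Ero1lb: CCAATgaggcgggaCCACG
Syvn1: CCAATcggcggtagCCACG
Derl3: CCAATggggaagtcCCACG

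A shorter form, ATTGG and CCACG separated by 1 base (ERSE-II), stood in the windows of Herpud1 and Dnajb11, against 12 of the 27025 genes (0.0444%). The sequence TTGCATCA, a composite element read by ATF4 and C/EBP factors, stood in those of Herpud1 and Cnpy2, against 279 genes (1.03%). The core TGACGTGG, read by XBP1 and ATF6, stood in 0 of the 30 windows, against 193 genes (0.714%). No matches overlapped one another, and 17 of the 30 windows held none of the 4 elements. An ERSE or ERSE-II match stood in the windows of 12 of the 30 genes (40%), against 49 of the 27025 genes (0.181%), a contrast with the same limit as that of the first element. Such a match stood in 7 of the 10 windows of genes that rose with lithium in both genotypes. It stood in 3 of the 11 windows of genes called in no drug comparison, a difference that was not tested. Hyou1 and Manf, which rose with lithium in both genotypes, and Atf6 and Derl1, called in no drug comparison, had no window. A match is a run of letters and no measure of binding. The 250 bases before the start follow for 4 genes on which the results turn, with matched letters in capitals, to show where the elements lie: Hspa5 (chr2:34771840-34772089, plus strand), Syvn1 (chr19:6046326-6046575, plus strand), Calr (chr8:84846932-84847181, minus strand, where the element lies on the opposite strand) and Herpud1 (chr8:94386179-94386428, plus strand, with the ATF4-type element first and ERSE-II nearer the start).
Hspa5: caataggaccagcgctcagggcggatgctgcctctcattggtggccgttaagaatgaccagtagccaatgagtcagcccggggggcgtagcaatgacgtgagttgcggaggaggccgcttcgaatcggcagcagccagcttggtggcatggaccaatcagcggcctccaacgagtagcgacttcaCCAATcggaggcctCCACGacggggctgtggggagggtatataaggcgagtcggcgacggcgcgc
Syvn1: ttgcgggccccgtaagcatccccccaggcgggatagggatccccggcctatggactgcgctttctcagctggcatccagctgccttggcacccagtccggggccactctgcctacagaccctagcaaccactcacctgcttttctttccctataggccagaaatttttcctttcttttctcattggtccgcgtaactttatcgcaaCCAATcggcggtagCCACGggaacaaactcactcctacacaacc
Calr: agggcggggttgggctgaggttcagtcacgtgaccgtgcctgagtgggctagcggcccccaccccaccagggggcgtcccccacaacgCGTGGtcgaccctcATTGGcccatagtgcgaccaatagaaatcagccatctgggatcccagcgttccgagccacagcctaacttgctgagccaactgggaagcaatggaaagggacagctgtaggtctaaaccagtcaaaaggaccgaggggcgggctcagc
Herpud1: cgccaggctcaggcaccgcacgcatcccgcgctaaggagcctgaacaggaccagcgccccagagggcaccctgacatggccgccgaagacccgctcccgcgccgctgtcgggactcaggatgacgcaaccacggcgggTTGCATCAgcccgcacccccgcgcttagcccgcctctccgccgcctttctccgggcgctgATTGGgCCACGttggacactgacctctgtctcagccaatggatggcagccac

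The levels of the genes in WT vehicle cortex spanned from Calr, at a mean of 2970.2 normalized counts per kilobase of exon, to Derl3, at 14.2. Next to Calr on this per-length scale came Hsp90b1 (2045), Canx (1904) and Pdia3 (1579), and Hspa5 stood at 1448. The 3 sensors stood at 41.9 (Ern1), 135 (Eif2ak3) and 297 (Atf6), and Atf4 at 1297. Over all libraries 98.5% of tested genes were below Calr and 15.8% below Derl3. Derl3 had few reads, 21.9 to 35.8 (median 26.8) normalized counts in WT vehicle mice, and its changes carry the widest errors.

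**Figure D1:**
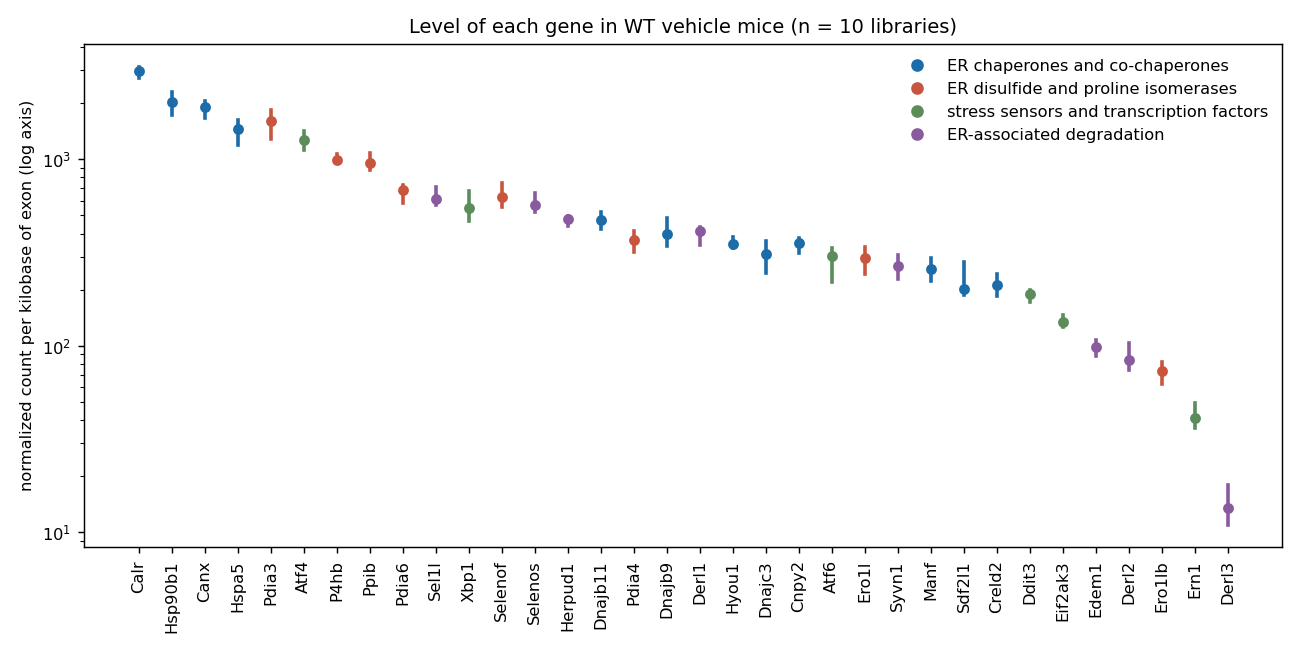
Level of each gene in the 10 WT vehicle libraries, in normalized counts per kilobase of exon on a log axis; points are medians, bars run from the lowest to the highest library and colours give the role. Calr, Hsp90b1, Canx, Pdia3 and Hspa5 lie at the top, and Ern1 and Derl3 at the bottom.

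With lithium, 12 of the 34 genes were higher in both genotypes. In HT mice 15 of the 34 genes rose and 2 fell, where 10.9% of all tested genes rose and 9.43% fell, and the median change of the 34 was 0.14 against 0.00 for all tested genes. In WT mice 14 rose and 2 fell, where 7.66% and 5.11% of all genes did, with a median of 0.12. The 12 genes higher in both were Hspa5, Hyou1, Sdf2l1, Dnajc3, Manf, Creld2, Calr, Pdia4, Ero1lb, Ddit3, Herpud1 and Syvn1, and Selenof was lower in both. Dnajb11, Pdia6 and Eif2ak3 (higher) and Dnajb9 (lower) passed in HT mice only, and Derl2 and Sel1l (higher) and Cnpy2 (lower) in WT mice only, but these lists do not show a difference between genotypes: limma called 0 of the 34 for genotype by lithium, where 0.00602% of all genes passed (2 at an unadjusted p under 0.05, against 12.2% of all genes, 0 with edgeR and 0 with DESeq2).

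**Figure D2:**
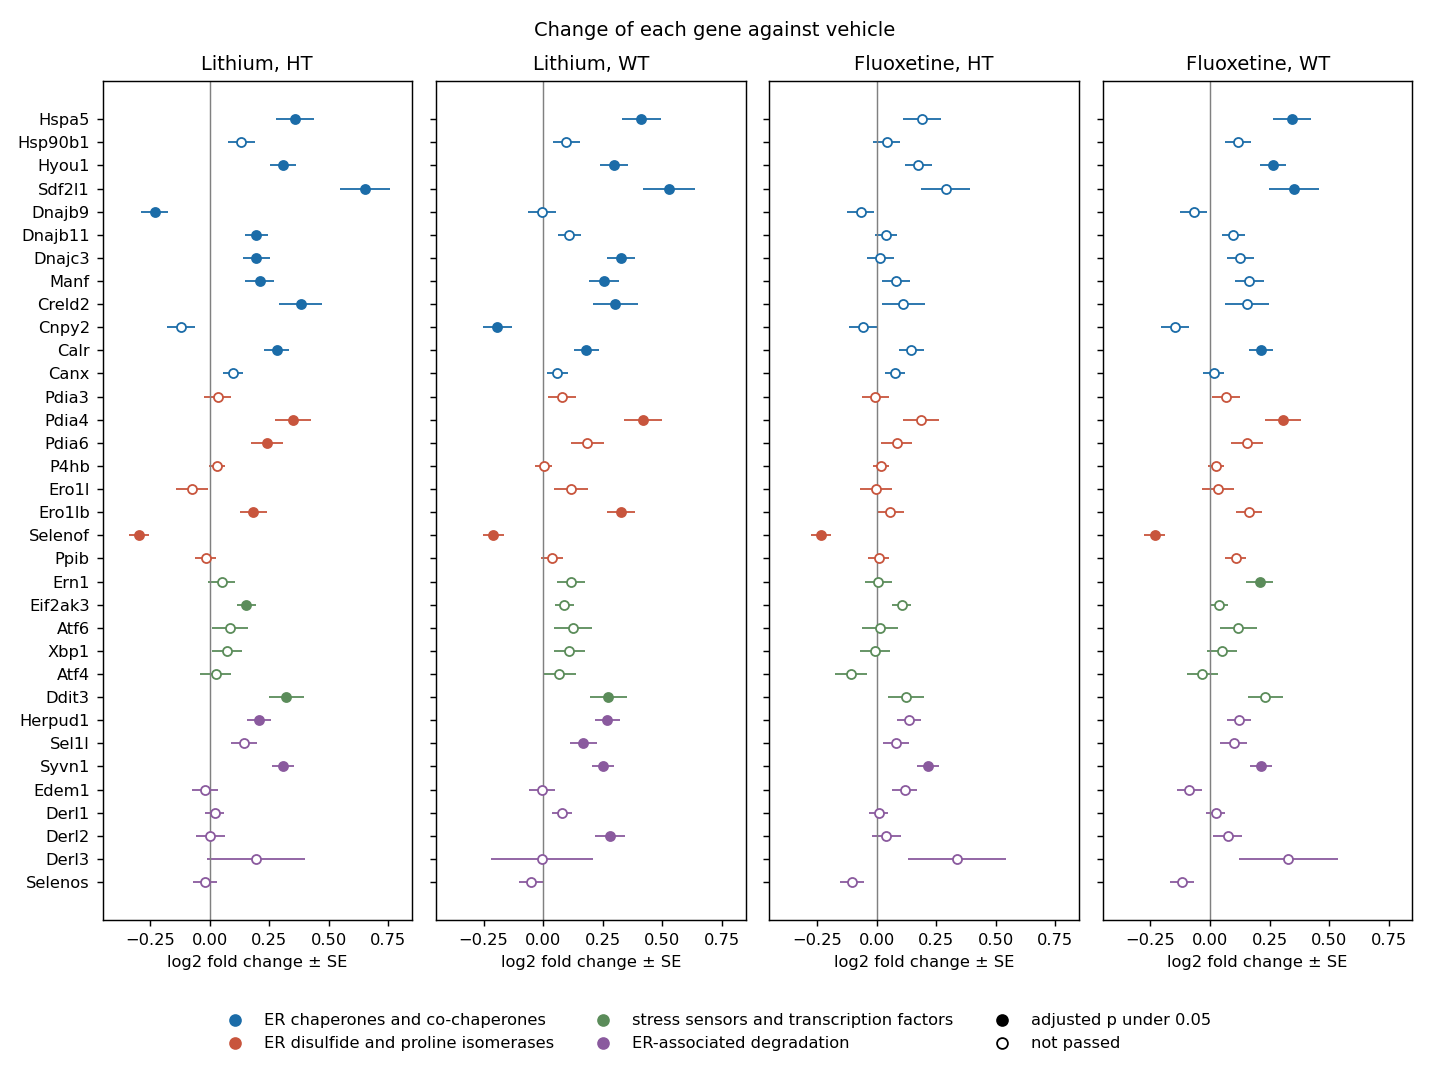
Change of each of the 34 genes with lithium or fluoxetine against vehicle, in HT and in WT mice, as log2 fold change ± SE; filled points passed an adjusted p of 0.05 and colours give the role. With lithium 15 and 14 genes lie filled to the right of 0, with fluoxetine 1 in HT and 7 in WT mice, and Selenof lies to the left in all 4 panels.

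Some markers of other cell types moved with lithium too. In HT mice 3 of 6 microglia markers, 2 of 6 astrocyte markers, 1 of 7 cortical excitatory, 1 of 6 GABAergic and 1 of 6 endothelial markers rose. The summed markers of myelinating oligodendrocytes ran from 44719 to 146352 (median 92341) with lithium and from 65782 to 156741 (median 132569) with vehicle, with 0 of 6 passing. In WT mice 2 of 6 microglia and 2 of 6 endothelial markers fell, and the oligodendrocyte sum had a median of 123245 with lithium and 148438 with vehicle, with 0 of 6 passing. The summed markers of the striatum ran from 3224 to 7807 (median 4587) with lithium and 2629.6 to 4666 (median 3886) with vehicle in HT mice, the highest in HT lithium female 5, and had medians of 5286 and 4240.2 in WT mice, with 0 of 6 passing in either. The bulb index had a median of 0.200 with lithium and 0.698 with vehicle in HT mice, and with it as a covariate 15 genes rose and 2 fell in HT mice and 16 rose and 2 fell in WT mice. Without the 8 libraries named above the counts were 14 and 3 in HT mice and 15 and 2 in WT mice. Over all tested genes 1809 rose with lithium in HT and 1272 in WT mice in the main fit. These numbers were 2279 and 1912 with the bulb covariate, and 1119 and 1656 without the 8 libraries. The part of the other cell types in the lithium changes was not tested.

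Of the 12 chaperones and co-chaperones, 8 rose and 1 fell in HT mice and 7 rose and 1 fell in WT mice. Hspa5 (ENSMUSG00000026864, chromosome 2, 34771970 to 34777547 of GRCm38), the gene of BiP, carried 7005 to 11485 (median 8611) normalized counts in HT lithium mice and 5383 to 8056 (median 6933) in HT vehicle mice. All 10 lithium libraries were above the vehicle median and 8 above the highest vehicle library. The change was 0.36 ± 0.08 (limma adjusted p = 0.000907), 0.43 in females and 0.29 in males. In WT mice Hspa5 ran over 6057 to 9274 (median 8111) with lithium and 5040.3 to 6903 (median 6186) with vehicle, and 8 of 9 lithium libraries exceeded every vehicle library. The change there was 0.41 ± 0.08 (limma adjusted p = 0.000463).

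Sdf2l1 (ENSMUSG00000022769, chromosome 16, 17130138 to 17132383), a small ER protein that works with the BiP partner Dnajb11, had the largest lithium change of the 34 in both genotypes. It stood at 301 to 436 (median 389) in HT lithium libraries and 199 to 303 (median 240.3) in HT vehicle libraries, so that 9 of 10 lithium libraries lay above all of vehicle. This was a change of 0.65 ± 0.10 (limma adjusted p = 1.32e-05), 0.57 in females and 0.73 in males. WT mice had 237 to 407 (median 356) with lithium and 208 to 311 (median 225) with vehicle, a change of 0.53 ± 0.11 (limma adjusted p = 0.000649). Here 6 of 9 lithium libraries exceeded the highest vehicle library, WT vehicle female 1.

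Hyou1, the nucleotide exchange factor that recharges BiP, counted 2914 to 3959 (median 3260.3) with lithium and 2260.3 to 3055 (median 2589) with vehicle in HT mice. In WT mice it counted 2760.3 to 3699 (median 3092) and 2416 to 2769 (median 2535). Of the lithium libraries 8 of 10 and 8 of 9 were above all vehicle libraries of their genotype, with changes of 0.31 ± 0.06 and 0.30 ± 0.06 (limma adjusted p = 6.86e-05 and 0.000298). Calr, the lectin chaperone calreticulin, showed 9134 to 11759 (median 10629) with lithium against 7434 to 9656 (median 8884) with vehicle in HT mice, a change of 0.28 ± 0.05 (limma adjusted p = 7.76e-05). In WT mice its 7650.1 to 10576 (median 9733) with lithium overlapped the 7896 to 9015 (median 8529.6) of vehicle only through WT lithium males 4 and 2, with a change of 0.18 ± 0.05 (limma adjusted p = 0.0166). With quantile normalization the WT change of Calr was 0.16 (limma adjusted p = 0.0591).

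The J-domain co-chaperones, which hand clients to BiP, did not move as one. Dnajc3 ran over 1714 to 2318 (median 2008) with lithium and 1435 to 2179 (median 1799) with vehicle in HT mice, and 1723 to 2291 (median 1991) and 1257 to 1865 (median 1595) in WT mice. It rose in both, by 0.20 ± 0.06 (limma adjusted p = 0.0105) and 0.33 ± 0.06 (limma adjusted p = 0.000107), with 7 of 9 WT but 1 of 10 HT lithium libraries above all vehicle libraries. The highest HT vehicle library for Dnajc3 was HT vehicle female 1. Dnajb11 rose by 0.20 ± 0.05 in HT mice (limma adjusted p = 0.00217) and stood at 0.11 ± 0.05 in WT mice (limma adjusted p = 0.131). Dnajb9, which also restrains IRE1, went the other way in HT mice. Its counts were 832 to 1162 (median 970.5) with lithium and 1033 to 1268 (median 1143) with vehicle, with 7 of 10 lithium libraries below every vehicle library. It fell by 0.23 ± 0.06 (limma adjusted p = 0.00258) and stood at 0.00 ± 0.06 in WT mice (limma adjusted p = 0.976). The HT fall of Dnajb9 was -0.10 (limma adjusted p = 0.141) once a trend on GC content was removed within each library.

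Manf and Creld2, secreted ER proteins induced by ER stress, rose in both genotypes. Creld2 ran over 299.6 to 551 (median 354) with lithium and 213 to 345 (median 292) with vehicle in HT mice, where the top value was again HT lithium female 5. The changes of Creld2 were 0.38 ± 0.09 (limma adjusted p = 0.00193) and 0.30 ± 0.09 (limma adjusted p = 0.025). The WT call of Creld2 was lost without WT lithium female 3, female 4 or male 2, with changes of 0.27 to 0.29 and limma adjusted p from 0.0532 to 0.0563. Manf ran over 999.7 to 1329 (median 1155) with lithium and 904 to 1112 (median 960.3) with vehicle in HT mice, overlapping. Manf changed by 0.21 ± 0.06 (limma adjusted p = 0.00979) and 0.26 ± 0.06 (limma adjusted p = 0.00384), and in HT mice by 0.17 (limma adjusted p = 0.0669) without the 8 libraries past the bulb or mitochondrial limit. Exons of Manf, Pdia3, Pdia6, Ppib, Ddit3, Syvn1, Derl2, Dnajb9, Eif2ak3 and Hsp90b1 overlap a gene on the opposite strand, and those of Manf, Hsp90b1, Pdia4 and Ddit3 another annotated gene on the same strand. The kit keeps strand but its use in counting is not stated in the sources used here, so reads of these genes are uncertain to that extent.

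The remaining 3 chaperones passed in at most 1 of the lithium comparisons. Hsp90b1, the ER form of Hsp90, stood at 0.13 ± 0.06 in HT (limma adjusted p = 0.0817) and 0.10 ± 0.06 in WT mice, and Canx, the membrane-bound lectin that pairs with calreticulin, at 0.10 ± 0.04 (limma adjusted p = 0.101) and 0.06 ± 0.04. With the GC trend removed 18 of the 34 genes rose in HT mice, Hsp90b1 (0.24, limma adjusted p = 0.00421), Canx (0.20, limma adjusted p = 0.00074) and Sel1l (0.16, limma adjusted p = 0.0379) being the 3 added. Over all tested genes 1043 rose in HT mice in that fit, against 1809 in the main one. Cnpy2, a saposin-like ER protein, stood lower: 499 to 608 (median 547) with lithium and 546 to 662 (median 619) with vehicle in WT mice. It fell there by 0.19 ± 0.06 (limma adjusted p = 0.0242), a call lost without WT lithium female 2 (-0.18, limma adjusted p = 0.0561) and with a trend on transcript length removed (-0.11, limma adjusted p = 0.218). In HT mice it stood at -0.12 ± 0.06 (limma adjusted p = 0.14), and at -0.17, limma adjusted p = 0.0264 with the GC trend removed.

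**Figure D3:**
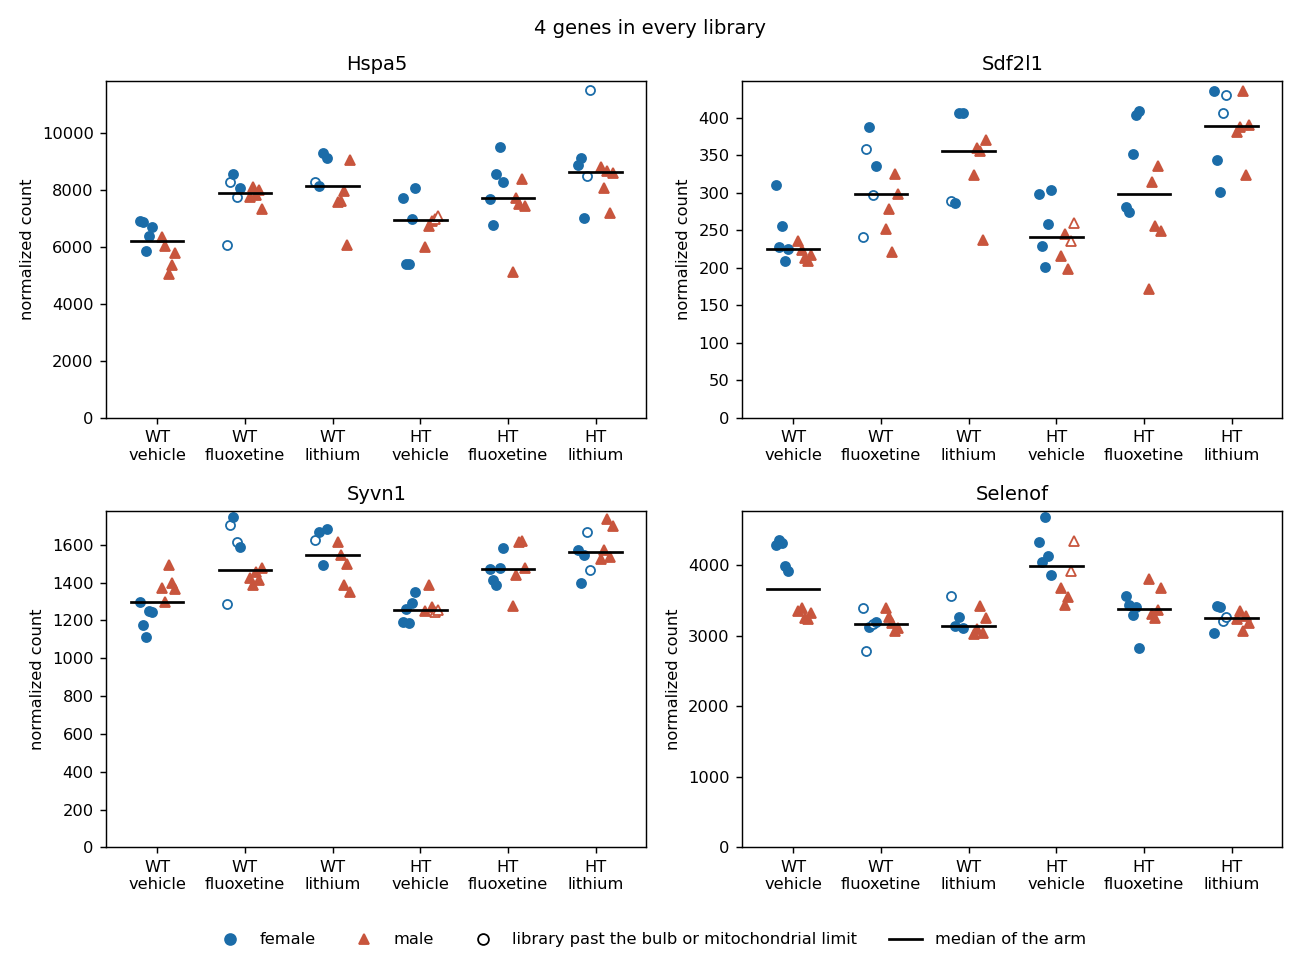
Normalized count of Hspa5, Sdf2l1, Syvn1 and Selenof in every library by arm; circles are females, triangles males, open symbols the 8 libraries past the bulb or mitochondrial limit and bars the median of the arm. Lithium medians lie above vehicle for Hspa5, Sdf2l1 and Syvn1 and below it for Selenof in both genotypes, and the highest Hspa5 value, 11485, is HT lithium female 5.

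Of the isomerases, Pdia4, Pdia6 and Ero1lb rose in HT mice and Pdia4 and Ero1lb in WT mice, while Selenof fell in both. Pdia4, a protein disulfide isomerase, counted 1034 to 1595 (median 1206) with lithium and 756 to 1167 (median 997) with vehicle in HT mice, and 891 to 1289.8 (median 1220.5) and 764 to 996 (median 891) in WT mice. Above the highest vehicle library lay 6 of 10 HT and 8 of 9 WT lithium libraries. The changes were 0.35 ± 0.08 (limma adjusted p = 0.0007) and 0.42 ± 0.08 (limma adjusted p = 0.000192). Ero1lb, an oxidase that reloads the isomerases with disulfides, had WT lithium counts of 548 to 673 (median 630.2), which did not overlap the 414 to 545 (median 488) of WT vehicle. Its changes were 0.33 ± 0.06 (limma adjusted p = 9.38e-05) in WT and 0.18 ± 0.06 (limma adjusted p = 0.0151) in HT mice. Pdia6 changed by 0.24 ± 0.07 (limma adjusted p = 0.00685) and 0.19 ± 0.07 (limma adjusted p = 0.0615).

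Selenof (ENSMUSG00000037072, chromosome 3, 144570304 to 144597680), a selenoprotein oxidoreductase that binds the glycoprotein sensor encoded by Uggt1, was the only one of the 34 genes that fell in all 4 drug comparisons. Its HT lithium counts, 3045 to 3418 (median 3251), lay entirely below the 3434 to 4679 (median 3986) of HT vehicle. It fell by 0.30 ± 0.04 (limma adjusted p = 2.63e-06), -0.36 in females and -0.23 in males. In WT mice the ranges 3027 to 3569.6 (median 3144) and 3237 to 4360.0 (median 3657) overlapped, with 5 of 9 lithium libraries below all of vehicle. The fall there was 0.21 ± 0.04 (limma adjusted p = 0.000839), -0.35 in females and -0.07 in males, and this difference between the sexes did not pass (limma adjusted p = 0.266). Of the other isomerases, Pdia3, P4hb, Ero1l and Ppib passed in neither genotype, at 0.03, 0.03, -0.07 and -0.02 in HT mice and 0.08, 0.00, 0.12 and 0.04 in WT mice.

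Of the 6 sensors and transcription factors 2 rose in HT and 1 in WT mice. The one called in both was Ddit3, which encodes CHOP, a factor downstream of PERK and ATF4. Ddit3 counted 337 to 479.8 (median 404) with lithium and 281 to 383 (median 304) with vehicle in HT mice, and 331 to 415 (median 399) and 293 to 343 (median 325) in WT mice. In each genotype all lithium libraries were above the vehicle median, and 7 of 10 and 8 of 9 above every vehicle library. It rose by 0.32 ± 0.07 (limma adjusted p = 0.00144) and 0.27 ± 0.08 (limma adjusted p = 0.0124). Its reads may be shared with a gene ID of the same symbol on the same strand and with Mars on the other. Eif2ak3, the gene of PERK, had 797 to 981 (median 879) with lithium and 731 to 853 (median 778) with vehicle in HT mice, with 7 of 10 above all of vehicle. It rose there by 0.15 ± 0.04 (limma adjusted p = 0.00332) and stood at 0.09 ± 0.04 (limma adjusted p = 0.14) in WT mice. Atf4, Xbp1, Atf6 and Ern1 did not pass, with HT changes of 0.02, 0.07, 0.09 and 0.05 and WT changes of 0.07, 0.11, 0.13 and 0.12. Counts per gene hold neither the splicing of Xbp1 nor the cleavage of ATF6 nor the phosphorylation of PERK.

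Of the 8 genes of ER-associated degradation 2 rose in HT and 4 in WT mice, and 0 fell. Syvn1 (ENSMUSG00000024807, chromosome 19, 6046576 to 6053712) encodes HRD1, the ubiquitin ligase that receives misfolded proteins. Its HT lithium counts of 1401 to 1735 (median 1559.9) did not overlap the 1188 to 1388 (median 1257) of HT vehicle, a change of 0.31 ± 0.05 (limma adjusted p = 4.04e-06). In WT mice it ran over 1349.9 to 1682 (median 1544) and 1114 to 1495 (median 1297), a change of 0.25 ± 0.05 (limma adjusted p = 0.000171), 0.41 in females and 0.09 in males (test of the difference between sexes: limma adjusted p = 0.252). Herpud1, which gathers substrates at that ligase, showed WT lithium counts of 1179 to 1501 (median 1360.1) that lay above all of the 1019 to 1163 (median 1111) of WT vehicle. It rose by 0.27 ± 0.05 (limma adjusted p = 0.000302) there and by 0.21 ± 0.05 (limma adjusted p = 0.00212) in HT mice.

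Derl2, a channel subunit of the degradation complex, rose in WT mice by 0.28 ± 0.06 (limma adjusted p = 0.00174), from 596 to 831 (median 673) with vehicle to 689 to 892 (median 856) with lithium, and stood at 0.00 ± 0.06 in HT mice (limma adjusted p = 0.98). The difference between these changes, -0.28 ± 0.09, did not pass (limma adjusted p = 0.215). Sel1l, the partner of HRD1, rose in WT mice by 0.17 ± 0.06 (limma adjusted p = 0.0411) and stood at 0.14 ± 0.06 in HT mice (limma adjusted p = 0.0555). The WT call of Sel1l was lost without any one of 12 of the 19 libraries compared: WT lithium females 2, 3 and 4 and males 3 and 5, and WT vehicle females 2, 4 and 5 and males 1, 3, 4 and 5 (changes of 0.14 to 0.17, limma adjusted p from 0.0530 to 0.102). With the length trend removed it was 0.10 (limma adjusted p = 0.309). Edem1, Derl1, Derl3 and Selenos passed in neither genotype, with HT changes of -0.02, 0.02, 0.20 and -0.02 and WT changes of 0.00, 0.08, -0.01 and -0.05.

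With fluoxetine fewer of the genes passed. In WT mice 7 rose and 1 fell, where 3.54% of all genes rose and 2.11% fell, with a median change of the 34 of 0.11 against -0.01 for all tested genes. The 7 were Hspa5, Hyou1, Sdf2l1, Calr, Pdia4, Ern1 and Syvn1, and Selenof fell. In HT mice 1 rose, Syvn1, and 1 fell, Selenof, where 0.205% and 0.0723% of all genes did, and the median was 0.05. These counts do not show that the genotypes differ: for genotype by fluoxetine limma called 0 of the 34 and 0% of all genes (2 of the 34 at an unadjusted p under 0.05, against 5.08% of all genes, 0 with edgeR and 0 with DESeq2). Lithium and fluoxetine were compared with the same vehicle libraries, and their values for a gene are therefore not independent.

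In WT fluoxetine mice Hspa5 ran over 6055 to 8558 (median 7888), against 5040.3 to 6903 (median 6186) with vehicle. All but WT fluoxetine female 1 lay above every vehicle library, and the change was 0.34 ± 0.08 (limma adjusted p = 0.00616), 0.24 in females and 0.45 in males. Pdia4 counted 959 to 1248 (median 1102) with fluoxetine, 8 of 10 above all of the vehicle range given above, a change of 0.31 ± 0.08 (limma adjusted p = 0.00961). Calr counted 8859.7 to 10965 (median 9872), with 9 of 10 above all of vehicle and a change of 0.21 ± 0.05 (limma adjusted p = 0.00789). Hyou1 counted 2385 to 3477 (median 3157), a change of 0.26 ± 0.06 (limma adjusted p = 0.00256). In all 4 of these genes WT fluoxetine female 1 was the lowest library of the arm.

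Sdf2l1 rose in WT fluoxetine mice by 0.35 ± 0.10 (limma adjusted p = 0.0347), from 208 to 311 (median 225) to 221 to 388 (median 298), with the ranges overlapping. Its call was lost without any one of 11 of the 20 libraries: WT fluoxetine females 2 and 3 and males 2, 4 and 5, and WT vehicle females 2, 4 and 5 and males 3, 4 and 5 (changes of 0.32 to 0.35, limma adjusted p from 0.0524 to 0.0774). Ern1, the gene of IRE1, ran over 329 to 460.5 (median 381) with fluoxetine and 297 to 402 (median 334) with vehicle, overlapping, and rose by 0.21 ± 0.06 (limma adjusted p = 0.0218). The call of Ern1 was lost without WT fluoxetine female 2, female 4 or male 3 or WT vehicle male 2 (limma adjusted p from 0.0509 to 0.0595), with the length trend removed (0.16, limma adjusted p = 0.108), in a fit of only these groups (0.21, limma adjusted p = 0.0737) and without the 8 libraries (0.13, limma adjusted p = 0.136).

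The 3 WT fluoxetine females past the bulb limit had high indices of 3.87, 2.66 and 4.30, and the counts changed without them. Without the 8 libraries 15 of the 34 genes rose and 2 fell with fluoxetine in WT mice, with Hspa5 at 0.40 (limma adjusted p = 0.0027) and Hyou1 at 0.35 (limma adjusted p = 5.43e-05). The 9 genes that rose then but not with all libraries were Hsp90b1 (0.18), Dnajb11 (0.16), Manf (0.20), Pdia6 (0.27), Ero1lb (0.24), Atf6 (0.30), Ddit3 (0.25), Herpud1 (0.21) and Sel1l (0.23), and Cnpy2 (-0.19) then fell beside Selenof. With all libraries kept, Ddit3, Ero1lb, Manf and Herpud1 also passed under at least 1 other setting, Ddit3 with edgeR and DESeq2 among them. Atf6 passed in males alone (0.43, limma adjusted p = 0.0296), a comparison that uses no female library. Without WT fluoxetine female 1 alone 12 rose and 2 fell, and with the bulb index as a covariate 11 rose and 1 fell. Calls over all 16599 tested genes grew as well in this comparison. They went from 939 (588 higher) in the main fit to 1970 (1197 higher) without the 8 libraries. With the bulb covariate they were 3143 (1665 higher), so the gain cannot be read as particular to the 34. In the same comparison 3 of 6 myelinating oligodendrocyte markers fell, their sum running from 50321 to 161851 (median 96637) with fluoxetine and from 79942 to 237710 (median 148438) with vehicle, and 1 of 6 microglia markers fell. The part of these cells in the fluoxetine changes was not tested.

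In HT fluoxetine mice Syvn1 counted 1275 to 1620.1 (median 1475), with 8 of 10 above all HT vehicle libraries, and rose by 0.22 ± 0.05 (limma adjusted p = 0.0242). Selenof counted 2821 to 3812 (median 3383), with 7 of 10 below all of vehicle, and fell by 0.23 ± 0.04 (limma adjusted p = 0.0162). Both calls were lost without HT fluoxetine female 5 or male 3 or HT vehicle female 3 or male 5, and that of Syvn1 also without HT fluoxetine male 4 (limma adjusted p from 0.0518 to 0.0840). A fit of only these groups called neither, at 0.22 (limma adjusted p = 0.15) and -0.23 (limma adjusted p = 0.157), and called 0 of all genes, as did the fit without the 8 libraries. In WT mice Selenof counted 2779.8 to 3391 (median 3173) and fell by 0.23 ± 0.04 (limma adjusted p = 0.0006), and Syvn1 counted 1288 to 1749 (median 1468) and rose by 0.21 ± 0.05 (limma adjusted p = 0.00256). Of the 12 chaperones 10 stood above 0 in HT mice, none passing, among them Hspa5 at 0.19 ± 0.08 (limma adjusted p = 0.311), Hyou1 at 0.18 ± 0.06 and Sdf2l1 at 0.29 ± 0.10.

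Between the genotypes none of the 34 genes passed under any treatment. Under vehicle 28 of 34 stood above 0 in HT against WT mice with a median of 0.06, against 48.2% of all genes above 0, and 8 had an unadjusted p under 0.05, against 6.47% of all genes. Under lithium 25 stood above 0 (median 0.03; 47.8% of all genes) and 2 had an unadjusted p under 0.05 (11.1% of all genes). Under fluoxetine 18 stood above 0 (median 0.00; 50.6% of all genes), with 5 at an unadjusted p under 0.05 (11.3% of all genes). Many of the 34 genes vary together within groups, as given below, so these counts do not rest on 34 separate observations. The numbers called by edgeR and DESeq2 were 0 in all 3 comparisons, and limma called 0 of all 16599 genes (0%) in each. With females alone 2 of the 34 passed under fluoxetine, Canx higher (0.21, limma adjusted p = 0.0459) and Ern1 lower (-0.29, limma adjusted p = 0.0377) in HT mice. That comparison called 491 of the 16599 genes, and 3 of its 5 WT fluoxetine females are past the bulb limit. Derl2 had the smallest p under vehicle, at 0.19 ± 0.06 (95% interval 0.06 to 0.31, limma adjusted p = 0.64), with 685 to 928 (median 761) in HT and 596 to 831 (median 673) in WT mice, which overlapped. The highest of these HT values was that of HT vehicle female 1. For Hspa5 the difference under vehicle was 0.13 ± 0.08, with a 95% interval from -0.03 to 0.29. For Syvn1 it was -0.03 ± 0.05, with an interval from -0.12 to 0.06.

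Sex entered one comparison. The difference between females and males in the effect of fluoxetine in WT mice passed for 5 of the 34 genes. The effect was higher in females for 1 (Syvn1) and lower in females for 4 (Pdia3, Selenof, Atf6 and Derl2), where 3.58% and 5.08% of all genes passed in these directions. For sex by lithium limma called 0 of the 34 in HT mice, with 0.012% of all genes passing, and 0 in WT mice, with 0%. For sex by fluoxetine in HT mice it called 0, with 0% of all genes. At an unadjusted p under 0.05 these 3 tests had 2, 3 and 3 of the 34, against 17.1%, 8.84% and 5.31% of all genes. edgeR and DESeq2 also called 0 of the 34 in these 3 tests.

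Atf6 in WT females counted 3002, 2939, 3100.1, 2865 and 2759.9 with vehicle and 1799.6, 2674, 3160.1, 2135 and 3397 with fluoxetine. In WT males it counted 2668, 3058, 2648, 2029.8 and 2302 with vehicle and 3642, 3122, 3623, 3789 and 2893 with fluoxetine. The lowest females on fluoxetine, 1 and 4, had the highest bulb indices of the arm, 3.87 and 4.30, while 4 of 5 males on fluoxetine lay above all males on vehicle. The difference of the effects (female minus male) was -0.63 ± 0.15 (limma adjusted p = 0.0106), from -0.19 in females and 0.43 in males. Derl2 differed in the same direction by -0.47 ± 0.12 (limma adjusted p = 0.014), with 831, 757, 688, 723 and 678 and 563, 647, 642, 682 and 764 in females, and 598, 667, 596, 626 and 626 and 750.0, 792, 841, 733 and 744 in males. All 5 males on fluoxetine exceeded all 5 on vehicle.

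Pdia3, the disulfide isomerase that works with calreticulin, differed by -0.38 ± 0.12 (limma adjusted p = 0.0329), from -0.12 in females and 0.26 in males. Females ran over 5533, 5734, 5169, 5493 and 5256 with vehicle and 4366, 4605, 5700.5, 4992 and 5407 with fluoxetine, and males over 4939, 4762, 4029, 4092 and 4543 and 5454, 5274, 5577, 5298 and 5032. The male groups did not overlap, and the female groups did. Syvn1 differed by 0.33 ± 0.09 (limma adjusted p = 0.0181), with 1295, 1173, 1114, 1249 and 1242 and 1288, 1705, 1749, 1615 and 1589 in females and 1373, 1299, 1495, 1396 and 1364 and 1424, 1387, 1456, 1412 and 1479.7 in males.

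Selenof stood apart in WT females on vehicle. These females counted 4293, 4360.0, 4315, 3991 and 3913, and those on fluoxetine 3391, 2779.8, 3128, 3171 and 3193. Males counted 3348, 3400.3, 3254, 3237 and 3329.8 on vehicle and 3389, 3274, 3175, 3066 and 3108 on fluoxetine. The vehicle females lay above all 15 libraries of the other WT groups on vehicle or fluoxetine, and the other 3 groups overlapped. The difference of the effects was -0.37 ± 0.08 (limma adjusted p = 0.00802). HT vehicle females, at 4334, 4053, 4679, 4125 and 3859.5, overlapped HT vehicle males, at 3682, 3434, 3557, 3919 and 4346.

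**Figure D4:**
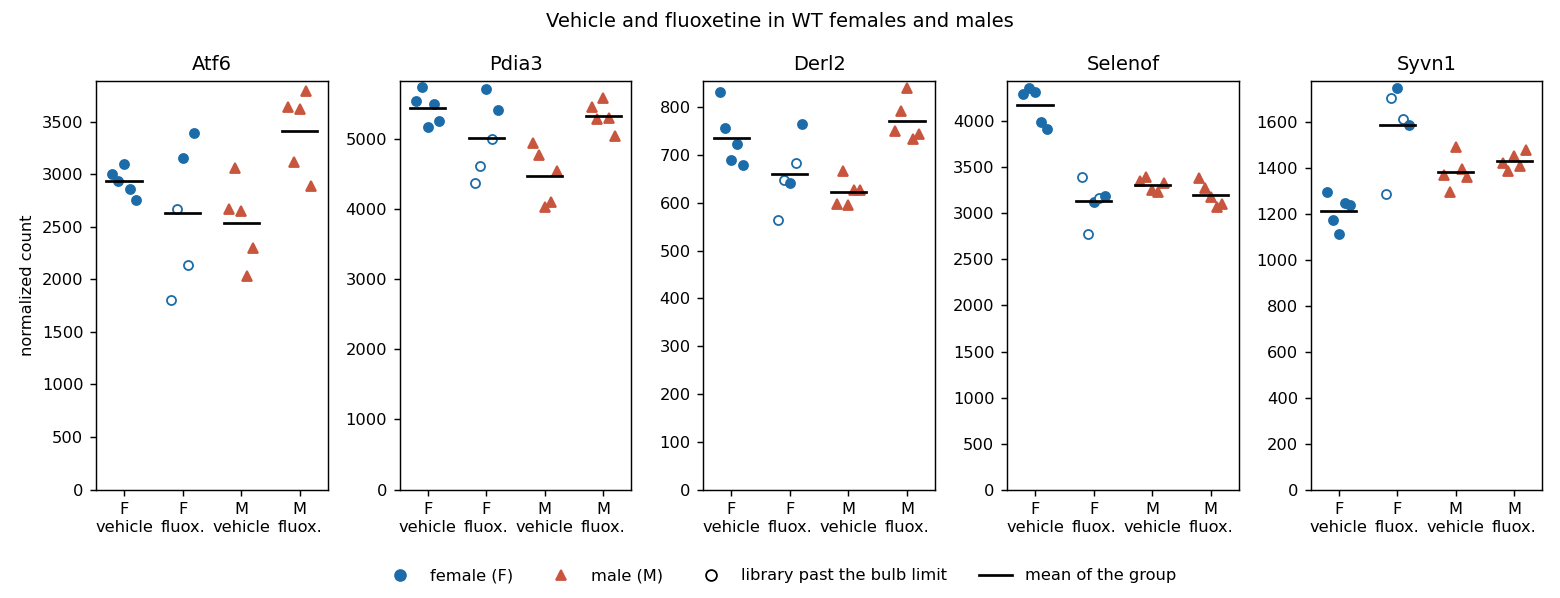
Normalized counts of the 5 genes whose fluoxetine effect differed between WT females and males; each symbol is a library, open symbols are the 3 females past the bulb limit and bars are means of 5 libraries. The means of Atf6, Pdia3 and Derl2 are higher with fluoxetine in males, and in females that of Selenof is lower and that of Syvn1 higher.

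All 5 of these sex differences lost their call without the 8 libraries, 3 of which are WT fluoxetine females, and with the GC trend removed. Over all genes this test called 1438 genes, against 2 without the 8 libraries and 1 with the GC trend removed. Without the 8 libraries the values were -0.27 (limma adjusted p = 0.288) for Atf6, -0.38 (limma adjusted p = 0.112) for Derl2 and -0.35 (limma adjusted p = 0.0839) for Selenof. They were -0.22 (limma adjusted p = 0.341) for Pdia3 and 0.41 (limma adjusted p = 0.0839) for Syvn1. With the GC trend removed Atf6 was -0.54 (limma adjusted p = 0.117), Pdia3 -0.31 (limma adjusted p = 0.184) and Derl2 -0.29 (limma adjusted p = 0.178). Selenof was then -0.22 (limma adjusted p = 0.158) and Syvn1 0.15 (limma adjusted p = 0.33). With 1 library left out, Syvn1 lost its call without WT fluoxetine female 2 (0.31, limma adjusted p = 0.0507). Pdia3 lost it without any one of 8: WT fluoxetine females 1 and 2 and males 1 and 3, and WT vehicle females 1 and 2 and males 3 and 4 (-0.37 to -0.33, limma adjusted p from 0.0520 to 0.0784).

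Within groups, many of the genes varied together from mouse to mouse. After each value was expressed as its deviation from the mean of its group on the log2 scale, Hspa5 correlated with 16 of the other 33 genes at an adjusted p under 0.05 over the 59 libraries, all positively (Pearson, permutation test with 100000 permutations, two-sided, adjusted over the 33). The share of all tested genes that correlate with Hspa5 in this way was not computed, so the count cannot be read as particular to these genes. The strongest were Pdia4 (r = 0.91, rho = 0.80), Pdia6 (r = 0.89, rho = 0.88), Calr (r = 0.89, rho = 0.78) and Manf (r = 0.85, rho = 0.75), each with a permutation p of 1e-05, the smallest they can give, and an adjusted p of 2.4e-05 for r. Without the 2 libraries farthest from the median of Hspa5, WT fluoxetine female 1 and HT fluoxetine male 1, r was 0.89, 0.87, 0.86 and 0.80, and all 16 kept their sign. In the 20 vehicle libraries alone 12 of the 33 passed, with r of 0.92 for Pdia4, 0.87 for Pdia6, 0.92 for Calr and 0.81 for Manf. Those that passed over 59 libraries but not here were Hyou1 (r = 0.62, permutation adjusted p = 0.0724), Ddit3 (r = 0.64, permutation adjusted p = 0.0757), Canx (r = 0.45, permutation adjusted p = 0.0695) and Herpud1. For Herpud1 r was 0.59 over all libraries and 0.14 with vehicle (permutation adjusted p = 0.614).

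Of the genes called in neither lithium comparison, Hsp90b1 (r = 0.84, rho = 0.78) and Pdia3 (r = 0.84, rho = 0.78) had correlations close to that of Dnajb11 (r = 0.83, rho = 0.75), each at the smallest permutation p of 1e-05. Some that rose with lithium missed the threshold. Syvn1 had r = 0.27 and rho = 0.04 (permutation p = 0.0942 and 0.790), and Ero1lb r = 0.25 and rho = 0.25 (permutation p = 0.0391 and 0.0563, adjusted p = 0.0690 for r). Selenof stood at r = -0.23 and rho = -0.15 (permutation p = 0.131 and 0.311). The sensor gene Ern1 had r = 0.01 and rho = 0.02 (permutation p = 0.961 and 0.906). Xbp1 had r = 0.68 and rho = 0.66 (permutation p = 1e-05 and 2e-05, adjusted p = 2.4e-05 for r). The labels do not say which libraries share a dissection or preparation day, and the part of such sharing was not tested.

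**Figure D5:**
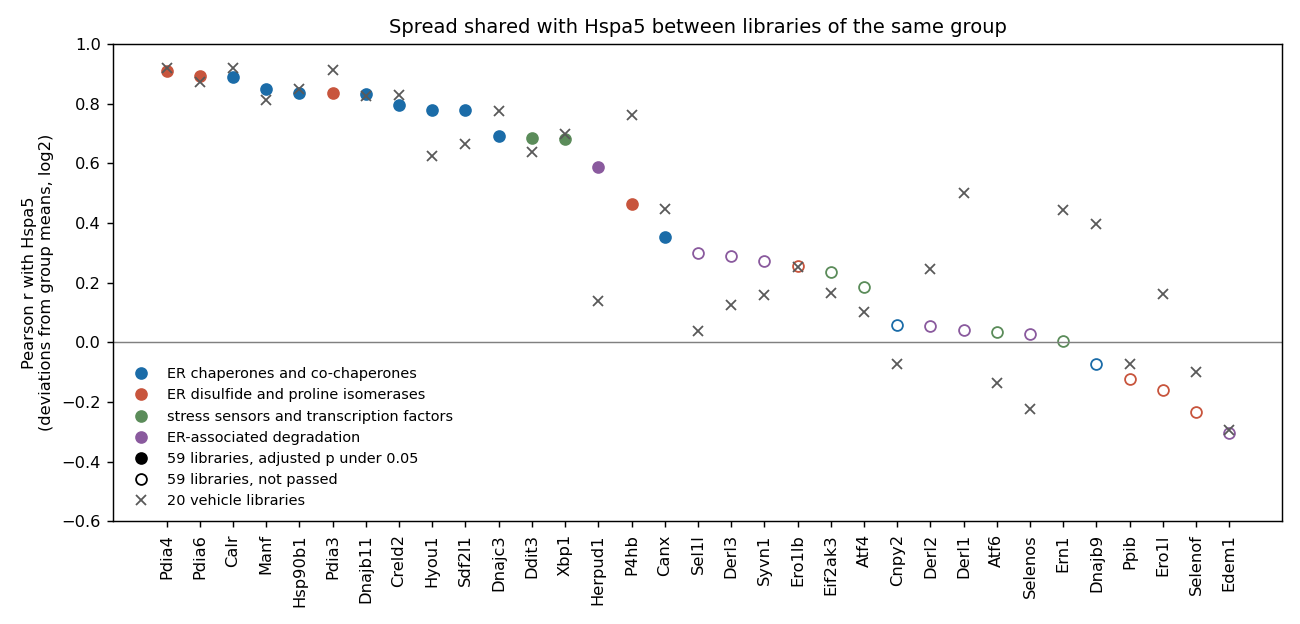
Pearson r of each other gene with Hspa5 over deviations from group means; circles are all 59 libraries, filled where the adjusted p was under 0.05, crosses the 20 vehicle libraries and colours the role. The 16 filled circles are all above 0, from Pdia4 at 0.91 to Canx at 0.35.

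Single libraries were extreme for many of the genes at once. HT lithium female 5 was the highest of its 10 libraries for 16 of the 34 genes, Hspa5, Hyou1, Creld2, Calr and Pdia4 among them, and the lowest for 8, among them Dnajb9 and Derl2. Without HT lithium female 5, 15 genes rose and 3 fell with lithium in HT mice, and Hspa5 was 0.31 (limma adjusted p = 0.00356), Creld2 0.32 (limma adjusted p = 0.0079) and Pdia4 0.31 (limma adjusted p = 0.00268). WT lithium male 4 was the lowest of 9 for 16 genes, and HT fluoxetine male 1 and WT fluoxetine female 1 each the lowest of 10 for 18. How often these libraries were extreme over all tested genes was not counted, so these counts cannot be read as particular to the 34.

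Of all tested genes 10.9% rose and 9.43% fell with lithium in HT mice, 7.66% and 5.11% in WT mice, and 3.54% and 2.11% with fluoxetine in WT mice, and the counts of the neighbouring systems that follow stand beside these shares. Among 30 further genes of ER folding and glycan trimming, 3 rose and 3 fell with lithium in HT mice. Those that rose were Uggt1 (0.21 ± 0.04), the sensor of unfinished glycoproteins, Prkcsh (0.27 ± 0.05), a glucosidase subunit, and the prolyl isomerase Fkbp2 (0.19 ± 0.07). Those that fell were Dnajc10 (-0.19 ± 0.05), Hspa13 (-0.20 ± 0.07) and Prdx4 (-0.19 ± 0.07). In WT mice 3 rose with lithium, Txndc11 (0.17 ± 0.04), Uggt1 (0.13 ± 0.04) and Prkcsh (0.19 ± 0.06), and 0 fell. With fluoxetine 0 rose and 2 fell in WT mice, Dnajc10 (-0.18 ± 0.05) and Cdnf (-0.45 ± 0.14), a relative of Manf.

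Of 32 measured genes of the translocon, signal peptidase and oligosaccharyltransferase, which bring proteins into the ER and attach their glycans, 3 rose and 6 fell with lithium in HT mice. Rpn1 (0.15 ± 0.04), Sec61a1 (0.14 ± 0.04) and Srp68 (0.11 ± 0.04) rose, and Srp72 (-0.16 ± 0.04), Spcs1 (-0.26 ± 0.07) and Ssr3 (-0.20 ± 0.06) were among those that fell. In WT mice 0 rose and 1 fell, Ssr2 (-0.11 ± 0.04). Of 20 further degradation genes 1 rose in HT mice, Os9 (0.25 ± 0.06), a lectin that delivers glycoproteins to HRD1, and 3 fell, Erlec1 (-0.29 ± 0.05), Ufd1 (-0.21 ± 0.04) and Rnf139 (-0.20 ± 0.05). In WT mice 0 rose and 2 fell with lithium, Ube2j2 (-0.14 ± 0.04) and Ufd1 (-0.13 ± 0.04), and Ube2j2 alone fell with fluoxetine (-0.17 ± 0.04).

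Targets of the integrated stress response, the arm that runs through ATF4, rose in 5 of 23 measured cases with lithium in HT mice, with 0 falling, led by Slc3a2 (0.18 ± 0.05), Sesn2 (0.24 ± 0.07) and Atf5 (0.30 ± 0.09). In WT mice 2 rose, Sesn2 (0.27 ± 0.07) and Slc7a1 (0.20 ± 0.06), and 0 fell, and with fluoxetine 1 fell, Psat1 (-0.15 ± 0.04). Of 14 signalling partners Creb3l2, an ER-anchored transcription factor, rose with lithium in both genotypes (0.26 ± 0.06 in HT and 0.34 ± 0.07 in WT mice). In HT mice Atf6b (0.16 ± 0.05) also rose, and Eif2s1 (-0.24 ± 0.06), the subunit that PERK phosphorylates, fell, as it did with fluoxetine in WT mice (-0.19 ± 0.06).

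The chaperones of the cytosol, counted for contrast with those of the ER, had 1 of 20 higher with lithium in HT mice, Hspa1a (0.41 ± 0.13), and 3 lower, Hsp90aa1 (-0.17 ± 0.06), Dnajb6 (-0.16 ± 0.06) and Dnaja1 (-0.16 ± 0.06). In WT mice 0 were higher and 2 lower, Dnajb6 (-0.19 ± 0.06) and Hsp90aa1 (-0.16 ± 0.06), and with fluoxetine 0 passed in either genotype. The median change of the 20 with lithium was 0.07 in HT and 0.05 in WT mice, against 0.20 and 0.22 for the 12 ER chaperones and co-chaperones, a difference between lists that was not tested. With fluoxetine in HT mice none of the 6 neighbouring lists had a gene that passed.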

How the data were processed

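Polyadenylated RNA of the prefrontal cortex of 59 mice was sequenced from libraries that keep strand, per the labels' protocols. The authors deposited 1 table of normalized counts, made with Salmon 0.11.2, R 3.6.0 and DESeq2 1.19.11 on GRCm38, per the submitters' processing notes; its deposited values are a signal, counts divided by a size factor of each library (0.783 to 1.25 as recovered here). Whole reads could be recovered for 100.0% of values (tolerance 0.001), giving 22984556 to 35969254 reads per library. The precision of a value is set by the spread between mice, not only by counting. No column belonged to other samples.

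The test planned for raw counts was edgeR, but since the table is normalized, limma 3.58.1 (R 4.3.3) was run on log2(normalized count + 1) of the 16599 genes with a mean of at least 10, in 1 model of 12 groups with trended, robust variances and 47 residual degrees of freedom. A fold change on this scale understates the change of low genes. P-values were adjusted by Benjamini-Hochberg over all tested genes in each comparison, at 0.05. Count tests on the recovered reads called 3448 genes (edgeR 4.0.16) and 3705 genes (DESeq2 1.42.0) for lithium in HT mice, where limma called 3374.

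Groups were read from the sample titles. Other alternatives were pseudocounts of 0.5 and 5, no filter, quantile normalization, only the groups compared, a block for replicate number, removal of a trend on GC content or on transcript length, the bulb index as covariate, 8 libraries left out, each sex alone and each library left out in turn. The text names all 34 genes and, of each neighbouring list, up to 3 genes per direction and drug comparison with the smallest p among those that passed. The members, lists and tests were chosen with earlier results of these data known. The scripts were tested on simulated data. Windows of 300 bases came from RefSeq. Splicing was not analysed here.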

Additional observations from a re-analysis of the deposited data

Results flagged for a closer look

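In 26 of 204 sets, 1 gene in 1 arm each, a single library lay far from the others of its arm by Dixon's test. Chance marks about 1 in 20 such sets, and the genes vary together within a library, so the 26 are not independent.

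HT lithium female 5, the library with the lowest mitochondrial share, accounts for 9 of them, all on the high side. It held 11485 normalized counts of Hspa5 (the other 9 libraries ran from 7005 to 9095), 12277 of Hsp90b1 (8448 to 10342), 3959 of Hyou1 (2914 to 3399), 2149.8 of Dnajb11 (1636 to 1871) and 551 of Creld2 (299.6 to 423). It also held 755 of Cnpy2 (494 to 609), 7014 of Pdia3 (4829.5 to 5916), 1595 of Pdia4 (1034 to 1307) and 3773 of Pdia6 (2781 to 3261).

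HT fluoxetine male 1 was low for 3 genes, with 6923 normalized counts of Hsp90b1 (others 8337 to 9862), 7459 of Calr (9161 to 10639.8) and 1997 of Pdia6 (2631 to 3319.9). WT lithium male 4 was low for Creld2, at 248 (338 to 413), and high for Atf4, at 4368 (2672 to 3507). HT fluoxetine female 1 was high for Canx, at 11776 (8870.0 to 9811), and Ero1l, at 2021 (1486 to 1771). HT vehicle male 3 was high for Canx, at 10269 (8482 to 9261), and low for Ppib, at 2751 (3204 to 3637).

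The remaining libraries stood apart for 1 gene each. On the high side were WT fluoxetine female 3 for Dnajb11, at 1911 (1486 to 1686), WT vehicle female 1 for Sdf2l1, at 311 (208 to 256), HT lithium female 2 for Ero1lb, at 720.4 (570.4 to 639.7), and HT vehicle male 2 for Herpud1, at 1292 (1054 to 1166). On the low side were WT fluoxetine female 1 for Hspa5, at 6055 (7320.4 to 8558), WT fluoxetine female 2 for Selenof, at 2779.8 (3066 to 3391), HT lithium female 4 for Sel1l, at 5519 (5969 to 6352), and HT vehicle female 2 for Derl1, at 1143 (1310.4 to 1469).

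The effect of fluoxetine in WT mice differed between the sexes, by a test of the difference itself (female minus male, log2), for Pdia3 (-0.38), Selenof (-0.37), Atf6 (-0.63), Derl2 (-0.47) and Syvn1 (0.33), with limma adjusted p from 0.00802 to 0.0329. All 5 lost their call without the 8 libraries past the bulb or mitochondrial limit, as given above.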

How the results depend on the processing

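Of the 48 calls of the 34 genes in drug and sex comparisons, 0 changed sign under any alternative run, and 39 held with each library left out in turn. Apart from the fits of a single sex and those that leave out 1 library, 35 held under every alternative, the fit without the 8 libraries included. With lithium, males alone gave 6 genes higher in HT mice and 5 higher and 0 lower in WT mice, females alone 1 lower in HT mice, and removal of the length trend 1 lower in WT mice. With fluoxetine in HT mice, 0 were higher with only the groups compared, with the replicate block and GC trend removed, without the 8 libraries, and in females or males alone, and 0 were lower with only the groups compared, without the 8 libraries and in males alone. With fluoxetine in WT mice, 11 were higher with the bulb covariate, 15 without the 8 libraries and 4 in females or males alone, and lower were 2 with the replicate block and GC trend removed, 2 without the 8 libraries and 0 in males alone. Over all genes this comparison called 939 genes in the main fit, 3143 with the bulb covariate and 1970 without the 8 libraries. HT against WT mice under fluoxetine gave 2 in females alone, where 491 of all genes passed. For sex by fluoxetine in WT mice 0 were higher with only the groups compared, and 0 higher and 0 lower with the GC trend removed, with the replicate block and GC trend removed and without the 8 libraries, while only the groups compared left 2 lower. The cause was not tested, but a single sex or fewer libraries also means fewer samples. Leaving out each library gave 15 to 16 genes higher and 2 to 3 lower with lithium in HT mice, 12 to 15 and 1 to 2 in WT mice, 0 to 2 and 0 to 1 with fluoxetine in HT mice, 5 to 12 and 1 to 2 in WT mice, and 0 to 1 and 3 to 7 for sex by fluoxetine in WT mice, with 0 throughout for genotype, genotype by drug and the other sex tests. Over all genes with fluoxetine in HT mice, quantile normalization called 70 genes, 60.0% of them higher, where the main scaling called 46, 73.9% of them higher.

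Replicate numbers gave no regular pairing of the samples: deviations of same-numbered libraries correlated from -0.412 to 0.520 over the comparisons, and at most 4 of 10 pairs exceeded 0.1 in any. The same-numbered library was the closest in 4 of 10 pairs for fluoxetine in HT mice and in at most 2 in any other comparison. Whether the numbers pair some of the samples was not tested. With the number as a block, 16 genes were higher and 2 lower with lithium in HT mice, 15 and 2 in WT mice, 1 and 1 with fluoxetine in HT mice, 8 and 1 in WT mice, and 1 and 4 for sex by fluoxetine in WT mice. Depth limits chiefly Derl3, with 35.8 normalized counts at most in WT vehicle mice.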
